A study of Homo sapiens with 2 samples.

Results

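The enzymes that make serine and pass its carbon through the folate cycle were examined as a group of 9 genes, PHGDH, PSAT1, PSPH, SHMT1, SHMT2, MTHFD1, MTHFD2, MTHFD1L and ALDH1L2, out of 60880 rows of the expression table. The genes were listed by name for their role in the pathway, with earlier results of these data known, and each had exactly 1 row. RNA was sequenced from SUM-159, a cell line of mesenchymal character from a human breast cancer without hormone receptors or amplified HER2. There was 1 library of cells deficient for PD-L1L2-SE, a super-enhancer that the study ties to the joint expression of the checkpoint ligands PD-L1 and PD-L2, and 1 library of the same line carrying the sgVector control. The labels do not say whether the deficient cells were a clone or a pool.

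No difference reported here could be checked on replicates, as each group had 1 library, and no p-value was computed. The deposited values are RPKM, reads per kilobase of summed exon length and per 1000000 reads on genes, and correspond to 16381546 reads for deficient cells and 16206675 for sgVector cells. Intervals are 95% Clopper-Pearson or exact Poisson intervals. They address counting error only and hold no spread between cultures. Reads amplified by PCR and carrying no molecular identifiers need not stem from separate molecules, so the intervals may be too narrow even for that. As a check of the labels, the PD-L1 gene CD274 had 0.698 RPKM in deficient cells against 7.16 RPKM in sgVector cells, and the PD-L2 gene PDCD1LG2 had 1.19 RPKM against 5.32 RPKM. All 5 mesenchymal markers looked at were expressed, with VIM at 390 RPKM in deficient and 746 RPKM in sgVector cells, FN1 at 297 and 229 RPKM, CD44 at 68.8 and 82.8 RPKM, AXL at 67.5 and 68.0 RPKM and CAV1 at 53.2 and 49.6 RPKM. The epithelial markers CDH1 and EPCAM had at most 1 read in either library, and the hormone receptor gene PGR had 0. Of 6 luminal and hormone receptor markers 4 were past 1 RPKM in at least 1 library, with the keratin genes KRT8 at 15.5 RPKM in deficient and 18.5 RPKM in sgVector cells and KRT18 at 21.1 and 28.9 RPKM, FOXA1 at 1.09 and 1.33 RPKM and GATA3 at 0.853 and 1.38 RPKM, while ESR1 had 6 and 2 reads. Among blood cell markers PTPRC had 0 reads in deficient and 4 in sgVector cells. Of the 5 leukocyte markers CD14 alone was past 1 RPKM, at 15.4 RPKM in deficient and 11.0 RPKM in sgVector cells, and 3 endothelial markers held 17 and 9 reads. In bulk RNA, a lower level in every cell and fewer cells with a high level cannot be told apart.

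Cells make serine from the glycolytic intermediate 3-phosphoglycerate by an oxidation, a transamination and a dephosphorylation, catalysed in turn by PHGDH, PSAT1 and PSPH. Serine hydroxymethyltransferase then moves a carbon from serine to tetrahydrofolate and leaves glycine. The carbon units so loaded are oxidised or reduced by the MTHFD enzymes in parallel arms in the cytosol and in mitochondria, and they feed purine, thymidylate and methionine synthesis. The amino acid response factor ATF4 is a known activator of PHGDH, PSAT1, SHMT2 and MTHFD2, and high PHGDH is a known feature of many breast tumours that lack the oestrogen receptor.

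The genes for the entry into serine synthesis were lower in deficient cells, and the gene for its last step was nearly level. PHGDH, the dehydrogenase that commits 3-phosphoglycerate to serine, and PSAT1, the aminotransferase that follows it, were each about 2-fold lower or more. That last gene is PSPH, the phosphatase that releases serine. Of the folate cycle genes SHMT2, the mitochondrial hydroxymethyltransferase, was lower by a smaller amount, and MTHFD2 and MTHFD1L, which act next to it in mitochondria, were close to equal. Of the 9 genes 8 reached a mean of 1 RPKM over both libraries, the floor used here for counts, and ALDH1L2 lay below it.

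Among the 8 genes past the floor, 2 were at least 2-fold lower in deficient cells, PHGDH and PSAT1, where 4.69% of all 13552 genes past the floor were at least 2-fold lower. None was at least 2-fold higher, where 3.03% of all genes were. At 1.5-fold 3 of the 8 were lower, with SHMT2 added, where 12.6% of all genes past the floor were, and none was higher, where 8.29% were. The median log2 ratio of the 8 genes, taken as log2 of (RPKM + 0.1) in deficient over sgVector cells, was -0.24, and the median of all genes past the floor was -0.05. All 8 ratios were below 0 on the deposited scale, as were 55.5% of all genes past the floor, but those of PSPH and MTHFD1L turned above 0 when the ratios were centred or rescaled by TPM, TMM or the upper quartile, or corrected for GC content and length. With at least 300 reads over both libraries, all 8 belonged to a set of 9451 protein-coding genes, of which 1.4% were at least 2-fold lower and 1.6% at least 2-fold higher. In that set PHGDH ranked 37 and PSAT1 ranked 129 from the lowest ratio, SHMT2 ranked 407, and MTHFD1L ranked 4933, near the middle. As the list was made with earlier results of these data known, these shares and ranks describe it and are no test.

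PHGDH had 8.20 RPKM from 1238 reads in deficient cells and 22.8 RPKM from 3402 reads in sgVector cells. It was 2.78-fold lower in deficient cells (95% interval 2.60 to 2.97), a log2 ratio of -1.46, and the counting intervals of its levels, 7.75 to 8.67 RPKM in deficient and 22.0 to 23.6 RPKM in sgVector cells, did not overlap. This ratio was the lowest of the 8 genes past the floor. By level per summed exon length, PHGDH stood above 54.8% of the expressed protein-coding genes in deficient cells and above 83.3% in sgVector cells.

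PSAT1 had 23.2 RPKM from 831 reads in deficient cells and 47.1 RPKM from 1670 reads in sgVector cells. It was 2.03-fold lower in deficient cells (1.87 to 2.21), a log2 ratio of -1.02. The interval reached to both sides of 2-fold, and centring, TPM, TMM, upper-quartile scaling or a pseudocount of 1 brought the ratio just short of 2-fold, to between -0.99 and -0.94. Its 4 pseudogenes held 2 reads in each library in all, so few PSAT1 reads were counted on those copies.

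PSPH had 3.85 RPKM from 174 reads in deficient cells and 3.93 RPKM from 176 reads in sgVector cells. Its ratio was 0.978 with an interval of 0.789 to 1.21, so a difference smaller than these bounds was not detectable at this depth. The 3 genes of the route did not keep their proportions. PHGDH was 2.13 times as abundant as PSPH per length in deficient cells and 5.79 times in sgVector cells, and the proportion was 2.72-fold lower in deficient cells (exact interval 2.17 to 3.40). PSAT1 was 6.03 times as abundant as PSPH in deficient cells and 12.0 times in sgVector cells, a proportion 1.99-fold lower (1.58 to 2.51). PHGDH was also lower relative to PSAT1, at 0.354 of its level in deficient cells against 0.484 in sgVector cells, 1.37-fold lower (1.23 to 1.52). The summed level of the 3 synthesis genes was 35.2 RPKM in deficient cells and 73.8 RPKM in sgVector cells.

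**Figure D1:**
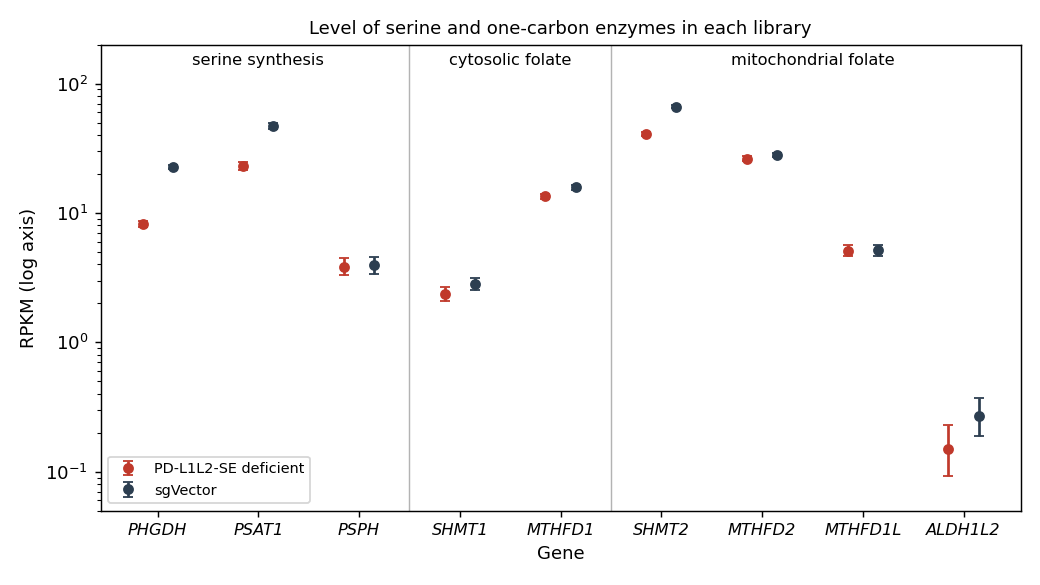
Level of each enzyme gene in RPKM on a log axis, with the PD-L1L2-SE deficient library (red) left of its sgVector counterpart (dark) and exact 95% Poisson intervals as bars. PHGDH at 8.20 against 22.8 RPKM and PSAT1 at 23.2 against 47.1 RPKM are the widest gaps among the genes past the floor, and the points of PSPH and MTHFD1L lie side by side.

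The stretches before the start sites of PHGDH and PSAT1 are shown with that of MTHFD2, a mitochondrial enzyme gene whose level differed little, because all are known to respond to ATF4. Each holds the 250 bases before the start site listed by RefSeq on build GRCh38.p14, for PHGDH chr1:119711684-119711933, for PSAT1 chr9:78296875-78297124 and for MTHFD2 chr2:74198365-74198614, all on the plus strand. Capitals mark matches to CCAAT or its reverse ATTGG.
PHGDH: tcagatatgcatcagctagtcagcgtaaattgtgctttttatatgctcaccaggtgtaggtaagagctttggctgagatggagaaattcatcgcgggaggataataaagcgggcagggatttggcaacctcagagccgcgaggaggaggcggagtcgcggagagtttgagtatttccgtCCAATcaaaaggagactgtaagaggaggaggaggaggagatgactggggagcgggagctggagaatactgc
PSAT1: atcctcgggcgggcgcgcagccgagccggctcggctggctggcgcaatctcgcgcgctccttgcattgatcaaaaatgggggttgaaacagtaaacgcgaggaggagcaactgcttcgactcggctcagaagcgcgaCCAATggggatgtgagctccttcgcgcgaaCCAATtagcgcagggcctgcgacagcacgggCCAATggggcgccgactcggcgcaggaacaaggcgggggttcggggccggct
MTHFD2: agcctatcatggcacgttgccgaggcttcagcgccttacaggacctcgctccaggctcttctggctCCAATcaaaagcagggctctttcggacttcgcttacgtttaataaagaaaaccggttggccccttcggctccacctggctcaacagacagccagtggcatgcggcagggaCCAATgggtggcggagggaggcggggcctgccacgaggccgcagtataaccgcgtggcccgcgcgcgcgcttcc

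Searched on both strands, CCAAT was found in 8 of the 9 promoter windows that the RefSeq table lists for 6 of the enzyme genes. Over all genes, 32.0% of 35116 windows of the same length held a match. Of the 9 windows 4 are of MTHFD1L, and those of its starts 1, 2 and 3 overlap and hold the same CCAAT match. Counted by gene, all 6 had a match, with 1 before PHGDH, 3 before PSAT1 and 2 before MTHFD2. The core of the C/EBP-ATF response element, TGATGNAA or its reverse TTNCATCA, was found in 2 of the 9 windows, both of MTHFD1L, as TGATGCAA at 129 to 122 bases before the first of its 4 listed starts, a match that the overlapping window of the third start holds too, where 3.14% of all windows held a match. The E-box CACGTG was found in 3 of the 9 windows, with 6.34% of all windows holding one. It lay in the MTHFD1 window and, as 1 shared site, in those of MTHFD1L starts 1 and 3. None of the marked matches overlapped another. A match or its absence in these windows is a description of the letters and not of binding. PSPH, SHMT2 and ALDH1L2 are not in the table.

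In the folate cycle the mitochondrial and cytosolic forms of the hydroxymethyltransferase both had ratios below 1, SHMT2 more so than SHMT1. SHMT2 had 40.6 RPKM from 3221 reads in deficient cells and 66.0 RPKM from 5175 reads in sgVector cells, 1.62-fold lower (1.55 to 1.70), a log2 ratio of -0.70. It was the most abundant of the 9 genes in both libraries. SHMT1, the cytosolic form, had 2.36 RPKM from 282 reads in deficient cells and 2.82 RPKM from 333 reads in sgVector cells, 1.19-fold lower (1.02 to 1.40). The mitochondrial form was 17.2 times as abundant as the cytosolic form per length in deficient cells and 23.4 times in sgVector cells, a proportion 1.36-fold lower (1.15 to 1.61).

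MTHFD2, the mitochondrial dehydrogenase and cyclohydrolase that follows SHMT2, had 26.3 RPKM from 2099 reads in deficient cells and 28.1 RPKM from 2218 reads in sgVector cells. It was 1.07-fold lower (1.01 to 1.13). SHMT2 was 1.54 times as abundant as MTHFD2 in deficient cells and 2.35 times in sgVector cells, so that the proportion of these consecutive enzymes was 1.52-fold lower (1.41 to 1.64). After a correction for GC content and length their log2 ratios lay closer together, at -0.54 for SHMT2 and -0.18 for MTHFD2, against -0.70 and -0.09 without it. MTHFD2 exons overlap those of SLC4A5 on the opposite strand over 27.2% of their length, and SLC4A5 held 13 reads in deficient and 9 in sgVector cells. How reads in the shared stretch were assigned is not known, so these counts do not settle its effect. The 7 MTHFD2 pseudogenes held 24 reads in deficient and 34 in sgVector cells.

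MTHFD1L, which releases formate in mitochondria, had 5.11 RPKM from 420 reads in deficient cells and 5.14 RPKM from 418 reads in sgVector cells. Its ratio was 0.994 (0.866 to 1.14). MTHFD1, the cytosolic enzyme with 3 activities that takes up that formate, had 13.5 RPKM from 2070 reads in deficient cells and 15.8 RPKM from 2396 reads in sgVector cells, 1.17-fold lower (1.10 to 1.24). ALDH1L2, which oxidises formyl-tetrahydrofolate in mitochondria, was scarce, with 21 reads in deficient cells and 37 in sgVector cells, or 0.151 and 0.268 RPKM. The ALDH1L2 ratio of read shares was 1.78-fold lower with a wide interval (1.02 to 3.20), and with the pseudocount its log2 ratio was -0.56. The summed level of the 4 mitochondrial folate genes was 72.2 RPKM in deficient cells and 99.5 RPKM in sgVector cells, and that of the 2 cytosolic ones 15.8 against 18.6 RPKM. Relative to MTHFD1, the proportion of MTHFD2 was 1.10-fold higher in deficient cells (1.01 to 1.19) and that of MTHFD1L 1.16-fold higher (from just above 1 to 1.35). SHMT2 relative to PSAT1 was 1.25-fold higher (1.14 to 1.38). These and the 5 proportions above were all that were compared. The proportions were not corrected for GC content, and such intervals hold no spread between cultures.

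**Figure D2:**
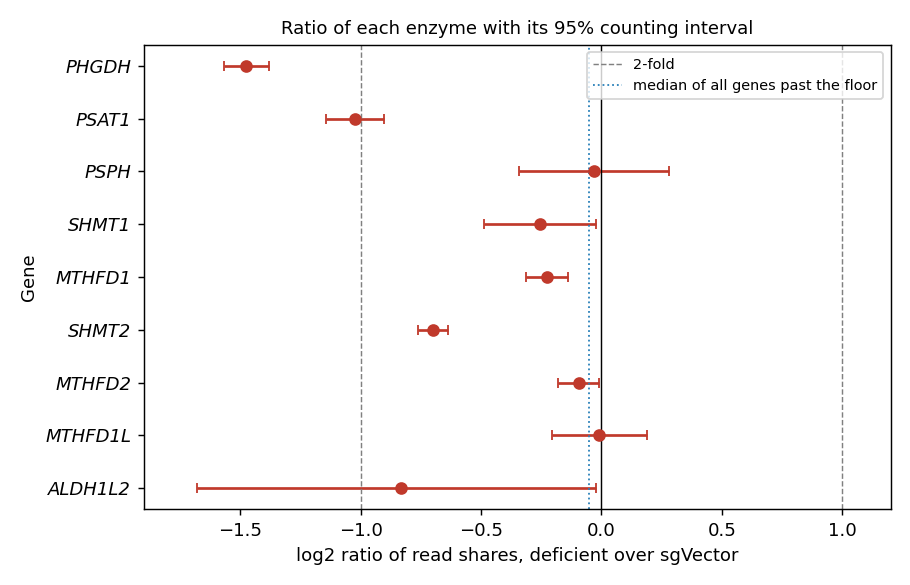
Log2 ratio of read shares, deficient over sgVector, for each enzyme gene, with 95% Clopper-Pearson intervals as bars, 2-fold as dashed lines and the median of all genes past the floor (-0.05) as a dotted line. PHGDH alone of the enzyme genes has its whole interval past 2-fold, as do 160 lower and 165 higher of all 13552 genes past the floor. The intervals of PSPH and MTHFD1L span 0.

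On the deposited scale 6 of the 8 genes past the floor had intervals wholly below no change. This was also true of 36.3% of the 9451 protein-coding genes with at least 300 reads. The upper bounds of SHMT1 and MTHFD2 were log2 ratios of -0.022 and -0.008. Centring, TPM, TMM and upper-quartile scaling moved the median of all genes up by 0.04 to 0.07, more than these margins. The smaller differences of SHMT1, MTHFD1 and MTHFD2, at log2 ratios of -0.25, -0.22 and -0.09, lay within the bulk of the 9451 genes, of which 26.7%, 28.7% and 42.5% had ratios as low or lower. For PHGDH that share was 0.391%, for PSAT1 1.36% and for SHMT2 4.31%.

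**Figure D3:**
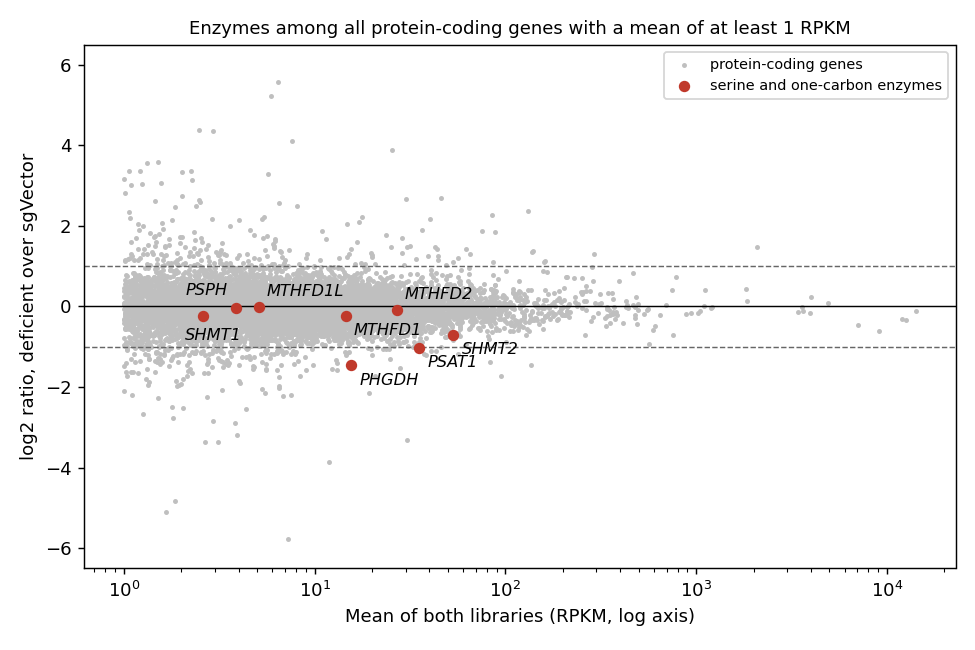
Log2 ratio, deficient over sgVector, against the mean level of both libraries in RPKM on a log axis, for 10576 protein-coding genes past the floor (grey) and the 8 enzyme genes among them (red), with 2-fold as dashed lines. PHGDH and PSAT1 lie at -1.46 and -1.02 on the lower fringe of the grey points at their level, and PSPH and MTHFD1L lie on 0.

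The order of the levels per length differed between the libraries in 2 places. In deficient cells it ran SHMT2, MTHFD2, PSAT1, MTHFD1, PHGDH, MTHFD1L, PSPH, SHMT1 and ALDH1L2 from high to low. In sgVector cells PSAT1 stood above MTHFD2 and PHGDH above MTHFD1, and the other genes kept their places. Each neighbour in either order differed beyond its counting interval, with MTHFD2 at 25.2 to 27.5 RPKM and PSAT1 at 21.6 to 24.8 RPKM in deficient cells among the closest. These levels divide by summed exon length, 9217 bases for PHGDH and 2188 for PSAT1, which need not match the transcripts expressed. The intervals hold no such error, so the order of genes and their proportions within a library are less certain than the intervals show. Ratios between the libraries divide by the same length on both sides.

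The ratios were also set beside those of the genes around each enzyme gene. PHGDH lies on chromosome 1 from 120191034 to 120286849 and PSAT1 on chromosome 9 from 80912059 to 80945009 (hg19 coordinates of the table). The 5 expressed protein-coding genes within 1 Mb of PHGDH had a median log2 ratio of 0.17 and a lowest of -0.18, and the 3 around PSAT1 a median of 0.05 and a lowest of -0.02. PHGDH and PSAT1 were lower than every one of those neighbours, PHGDH by 1.63 below their median and PSAT1 by 1.07. With only 5 and 3 neighbours, and both ratios low among all genes, this order was likely in advance and is a description.

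SHMT2, on chromosome 12 from 57623110 to 57628718, differed in this respect. Of its 43 expressed neighbours within 1 Mb 41 had ratios below 0, with a median log2 ratio of -0.50, and 12 were lower than SHMT2. Its own ratio of -0.70 lay 0.20 below that median. The median over the 570 other expressed protein-coding genes of chromosome 12 was -0.29. SHMT2 also has the highest GC content of the 9 genes, 57.0% in its longest transcript, and the log2 ratio moved with GC content, with protein-coding genes in 5 classes of equal size having medians from 0.14 at the lowest GC content to -0.20 at the highest. After a correction for GC content and length the SHMT2 log2 ratio was -0.54. The part of the neighbourhood in the SHMT2 difference was not tested.

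The other enzyme genes lie, in the same coordinates, on chromosome 7 from 56078744 to 56119297 (PSPH), chromosome 17 from 18231174 to 18266877 (SHMT1), chromosome 14 from 64854749 to 64930175 (MTHFD1), chromosome 2 from 74425689 to 74444692 (MTHFD2), chromosome 6 from 151186685 to 151423023 (MTHFD1L) and chromosome 12 from 105413562 to 105478355 (ALDH1L2). Around each of them some neighbours had ratios below 0 and some above, in differing shares. Below 0 were 5 of 8 neighbours of PSPH, 13 of 21 of SHMT1 and 8 of 11 of MTHFD1. For MTHFD2 these were 12 of 27, for MTHFD1L 1 of 7 and for ALDH1L2 9 of 11. The median log2 ratio was -0.17 over 8 genes around PSPH, -0.11 over 21 around SHMT1, -0.12 over 11 around MTHFD1, 0.04 over 27 around MTHFD2, 0.28 over 7 around MTHFD1L and -0.13 over 11 around ALDH1L2. All enzyme genes other than PHGDH and PSAT1, with 7 to 43 neighbours each, lay within the range of their neighbours.

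**Figure D4:**
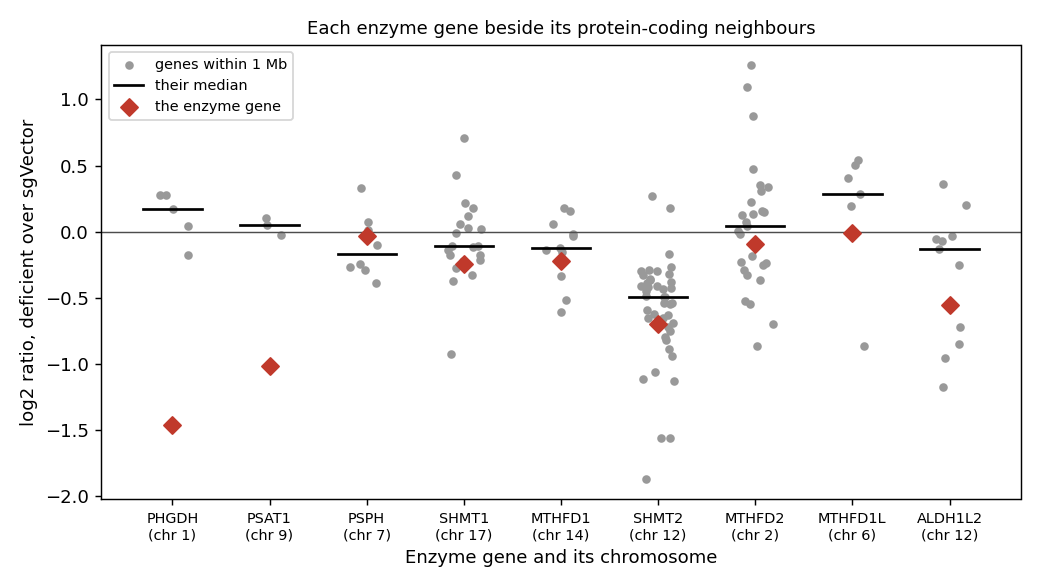
Log2 ratio, deficient over sgVector, of each enzyme gene (red diamond) and of the expressed protein-coding genes within 1 Mb of it (grey), whose median is the black bar. PHGDH and PSAT1 lie below all of their neighbours, while SHMT2 sits inside a group with a median of -0.50.

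Genes of the connected pathways were set beside the enzymes. Over 7 lists of connected genes, 52 different genes were past the floor, with a median log2 ratio of -0.02, and 2 of them (3.85%) were at least 2-fold lower and none higher, against 4.69% lower and 3.03% higher over all genes past the floor. The lower share was near that of all genes. Of 17 genes of folate turnover, uptake and storage 11 were past the floor, none of them 2-fold apart, with 5 ratios below 0 and 6 above and a median of 0.08. Below the floor ALDH1L1, the cytosolic counterpart of ALDH1L2, had 25 reads in deficient cells and 144 in sgVector cells, 5.82-fold lower (3.79 to 9.30). In glycine cleavage only DLD, the shared lipoamide dehydrogenase, was past the floor, at 14.9 RPKM in deficient and 12.9 RPKM in sgVector cells.

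Of 14 genes of serine transport and use 10 were past the floor, none 2-fold apart, with 5 ratios below 0 and 5 above and a median of 0.02. SFXN2, a homologue of the mitochondrial serine carrier SFXN1, lay just below the floor with 0.501 RPKM in deficient cells against 1.21 RPKM in sgVector cells, 2.40-fold lower (1.79 to 3.26). SFXN1 itself went the other way, with 19.7 RPKM in deficient cells and 15.6 RPKM in sgVector cells, a log2 ratio of 0.33. CBS, which joins serine to homocysteine, had 15 reads against 66, 4.45-fold lower (2.51 to 8.39). Its exons overlap those of another annotated gene over 57.9% of their length. That gene held 0 reads in both libraries, and how reads in the shared stretch were assigned is not known. Of 12 methionine cycle and transsulfuration genes 7 were past the floor, none 2-fold apart, with a median of 0.09. All 8 purine synthesis genes had rows and 7 were past the floor, none 2-fold apart, with a median of -0.12, from -0.46 for ATIC, which uses formyl-tetrahydrofolate in the closing steps of the route, to 0.10 for PAICS.

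The lower ratios of PHGDH and PSAT1 were set beside other targets of ATF4. Of 15 such genes outside the pathway 13 were past the floor, with a median log2 ratio of -0.30, and 9 of them were below 0, as were 55.5% of all genes past the floor. At least 2-fold lower, where 4.69% of all genes were, were DDIT3, which encodes the stress factor CHOP, and ASNS, which encodes asparagine synthetase, and none was 2-fold higher, where 3.03% of all genes were. Other members of this list went the opposite way, and 2 of them, chosen after their values were seen, are given here. CEBPB, a C/EBP factor gene, had 8411 reads in deficient cells and 5013 in sgVector cells, a log2 ratio of 0.73, and the factor gene ATF5 had 191 and 113 reads, a log2 ratio of 0.72. ASNS had 12.6 RPKM in deficient cells and 25.7 RPKM in sgVector cells, 2.04-fold lower (1.89 to 2.21), close to the PSAT1 value and likewise with an interval on both sides of 2-fold. DDIT3 had 6.21 RPKM against 18.5 RPKM, 2.98-fold lower (2.44 to 3.65). It lies among the SHMT2 neighbours on chromosome 12, and 27.2% of its exon length overlaps MARS1 on the opposite strand, which had 1769 reads in deficient cells and 3666 in sgVector cells. The lipoprotein receptor gene VLDLR, below the floor, had 8 reads in deficient cells and 49 in sgVector cells. ATF4 itself had 87.1 RPKM in deficient cells and 116 RPKM in sgVector cells, 1.34-fold lower (1.28 to 1.40). NFE2L2, which encodes NRF2, another known activator of serine synthesis genes, had 31.9 against 32.2 RPKM. ATF4 and NFE2L2 had the lowest and the highest ratio of 3 known regulators, whose median log2 ratio was -0.03. RNA levels do not measure the activity of these factors, and their part in the PHGDH and PSAT1 differences was not tested.

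**Figure D5:**
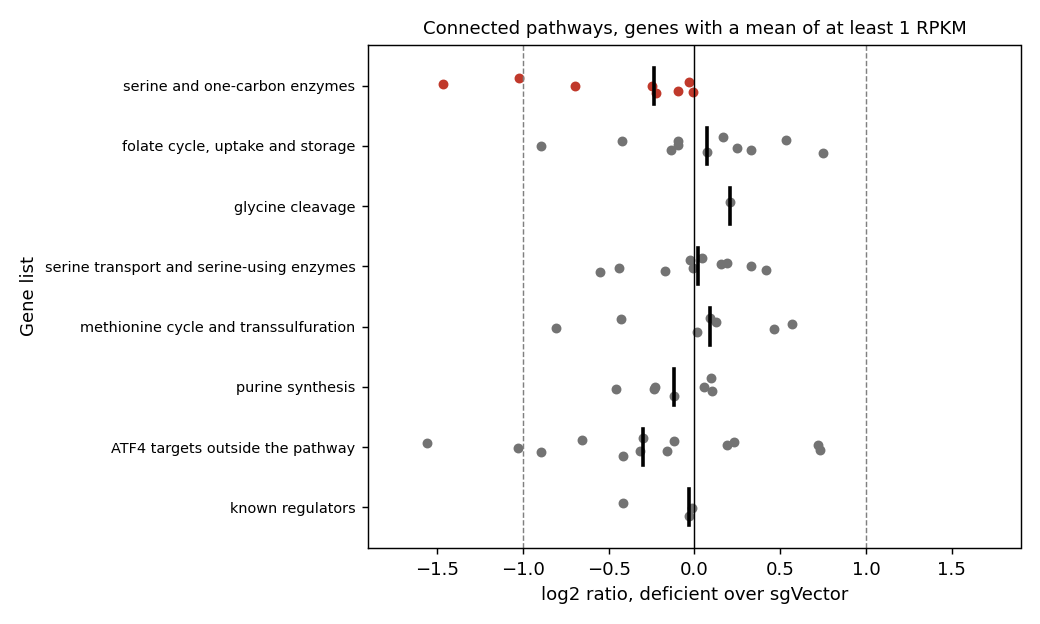
Log2 ratio, deficient over sgVector, of the 8 enzyme genes (red) and of the genes of 7 connected lists (grey), all past the floor of 1 RPKM, with medians as black bars and 2-fold as dashed lines. The medians lie between -0.30 for the other ATF4 targets and 0.21 for glycine cleavage, which holds 1 gene.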

How the data were processed

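Per the labels' protocols, RNA of SUM-159 cells was selected by poly(A) tail or by removal of ribosomal RNA, and sequenced as 1 library per group. The submitters' processing notes name Subread, featureCounts 1.6.4 and the builds GRCh37 and hg19. The aligner, gene annotation and use of strand, not given in the sources used here, leave reads of overlapping genes uncertain. The authors deposited 1 RPKM column per library beside exon positions and summed exon length. Multiplied by length, the RPKM values were whole multiples of 1 read in 100% of cases (tolerance 1e-06 of a read), and the reads recovered served for intervals and totals. A value of 0 allows up to 3 reads.

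Gene types and GC content of the longest transcript came from GENCODE release 29, which matched 93.4% of 60880 rows, and no coordinates were taken from it. The 41 rows for chromosome Y copies of pseudoautosomal genes were dropped. Differences are log2(RPKM + 0.1) in deficient minus sgVector cells, a scale that understates low genes, and counts cover genes whose mean reached 1 RPKM. Fold changes with intervals are ratios of read shares. Proportions between genes have exact conditional odds ratio intervals, for 8 pairs. The listed enzymes, lists and named genes were chosen with earlier results of these data known. Named were the 9 enzymes, CD274 and PDCD1LG2, and, per list, members past 2-fold whose interval excludes no change, otherwise the highest and lowest ratio past the floor. Overlapping genes and markers were named for the checks, and CEBPB, ATF5 and SFXN1 were named outside this rule.

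Alternatives were pseudocounts of 1 and 0.01, centring, TPM, TMM, upper-quartile scaling, removal of mitochondrial genes, a lowess correction (share 0.3) for GC content and length, floors of 5 RPKM and none, 1.5-fold, whole intervals past 2-fold and protein-coding genes alone. A minimum of 300 reads was added after the data were seen. The steps were tested on simulated data. Scripts ran in Python 3.11.15 with scipy 1.17.1, numpy 2.4.6, statsmodels 0.14.6, pandas 2.3.3 and matplotlib 3.10.9.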

Additional observations from a re-analysis of the deposited data

How the results depend on the processing

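Of 72 log2 ratios of the enzyme genes under 8 alternatives each, 69 stayed inside the main counting interval. The exceptions were PHGDH with a pseudocount of 1 (-1.37) and SHMT2 with TMM scaling (-0.62) and with the GC and length correction (-0.54). PHGDH stayed at least 2-fold lower under all 8, between -1.49 and -1.37, and SHMT2 between -0.72 and -0.54. The count of enzyme genes at least 2-fold lower was 1 instead of 2 with a pseudocount of 1, centring, TPM, TMM or upper-quartile scaling, and with the whole interval past 2-fold, as PSAT1 lies at that threshold. Their median stayed between -0.46 and -0.16. The scalings moved the median of all genes by at most 0.07.

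Against 636 genes at least 2-fold lower and 411 higher in all, a pseudocount of 1 gave 344 and 215. The counts were 3711 and 2575 with no floor, 152 and 115 with a floor of 5 RPKM, 1703 and 1123 at 1.5-fold, and 160 and 165 with the whole interval past 2-fold. Protein-coding genes alone gave 219 and 222, with 132 and 151 for those with at least 300 reads, a minimum chosen after seeing the data. These settings alter by design which genes are counted. No paired analysis was possible because there was 1 library per group. Depth limits ALDH1L2, ALDH1L1, CBS and VLDLR, with 8 to 25 reads in the deficient library.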
